A study of Mus musculus with 32 samples.

Results

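The bulk fractions of 4T1-Luc tumours labelled resistant and sensitive to sunitinib were compared at a tumour size of 1300 mm3. The members were chosen by sample title: 4 resistant and 4 sensitive bulk samples, 8 of the 32 samples in the series. 4T1-Luc is a luciferase-marked mouse mammary carcinoma line, injected into a mammary fat pad of Balb/C females at 8 weeks of age. The resistant group and the sensitive group both received 40 mg/kg sunitinib, and the labels give sensitivity up to day 8. The 4 vehicle bulk samples of the same size received the drug vehicle only and are given last, for context. Bulk is the digested tissue that remained after cells were pulled out with beads against PECAM-1, and the selected cells are the EC fraction. The mean level of 18 tumour epithelial markers was 2.90 to 3.22 in resistant bulk, against 2.13 to 3.79 in sensitive bulk, and the ranges overlapped. Nothing in the labels says how resistance was scored.

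Sunitinib blocks receptor tyrosine kinases, among them the receptors for VEGF and PDGF, KIT and the CSF1 receptor. VEGF receptors on endothelial cells drive vessel growth, and PDGF receptors act on the pericytes and fibroblasts around the vessels. Drug-treated tumours can keep growing through other angiogenic factors, through changes in tumour metabolism or through cells of the immune system.

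RNA was measured on 1-colour Agilent arrays, and each level below is a log2 signal relative to the 75th percentile of its array. All resistant bulk arrays lie on 1 slide and all sensitive bulk arrays on another, which also holds the vehicle bulk arrays. The resistant EC arrays lie on the slide of resistant bulk, and the sensitive EC arrays on a further slide. In every result here, bulk or EC, the slide and the resistance label thus cannot be told apart. Arrays named below are those of bulk unless EC is stated. One resistant array, that of mouse 2, stood apart. Its correlation with the other resistant arrays over genes was 0.873 to 0.886, whereas the resistant arrays of mice 1, 3 and 4 correlated at 0.989 to 0.991. On that array 83.5% of probes were well above background, against 55.3% to 58.8% on the other resistant arrays, 69.9% to 82.4% on the sensitive arrays and 65.7% to 70.2% on the vehicle arrays. Counts of calls in bulk over all genes and over the main gene groups are therefore given with and without it, as are some of the gene values. Fewer cells of a type and less RNA per cell cannot be told apart in bulk samples.

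limma called 2084 of 16969 genes (12.3%) at the threshold of 0.05 on the adjusted p. Of these, 564 (3.32%) were higher and 1520 (8.96%) lower in resistant bulk, and the median difference over all genes was -0.04. The arrays of the 2 groups did not overlap for 7.08% of genes that were higher and 10.8% that were lower in resistant bulk. Without resistant mouse 2, 6395 genes (37.7%) passed, 2088 higher (12.3%) and 4307 lower (25.4%), and all 2084 genes kept their call and direction. Leaving out each of the other resistant or sensitive arrays in turn gave 1172 to 1640 genes. The count was 1208, 1225 and 1172 without resistant mouse 1, 3 and 4, and 1222 and 1265 without sensitive mouse 4 and 5.

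Genes were split into 4 groups of equal size by mean level over the 12 bulk arrays. In the lowest level group, 11.7% were lower and 1.46% higher in resistant bulk, and without resistant mouse 2 62.3% were lower. In the second level group 14.5% were lower and 5.63% higher, in the third 4.76% lower and 3.32% higher, and in the highest 4.86% lower and 2.88% higher. The share of higher calls was lowest in the lowest level group, and the share of lower calls was largest in the second with all arrays and in the lowest without resistant mouse 2. The median level of the lowest level group was -5.78, -5.85 and -5.90 on the resistant arrays of mice 1, 3 and 4 and -1.91 on that of mouse 2, against -4.05 to -3.89 on the sensitive arrays and -4.30 to -3.95 on the vehicle arrays. The sensitive range thus lay between resistant mouse 2 and the other resistant arrays. Genes well above background on all resistant arrays made up 23.0% of this level group, and those on all sensitive arrays 73.0%.

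**Figure D1:**
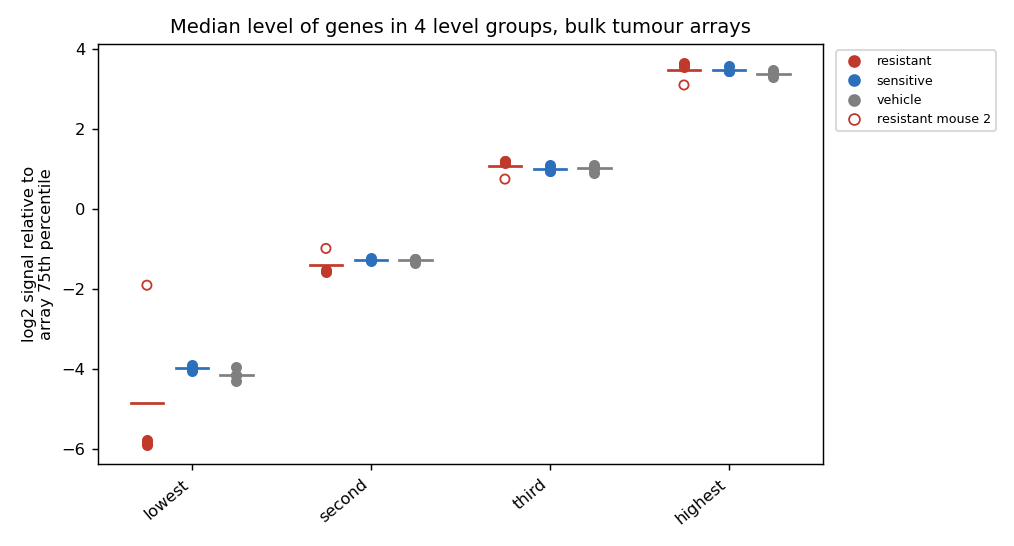
Median log2 level (y axis, relative to the 75th percentile of the array) of the genes in each of 4 level groups (x axis), for every bulk array; bars are group means. In the lowest level group resistant mouse 2 sits at -1.91 and the other resistant arrays between -5.90 and -5.78, with the sensitive arrays between -4.05 and -3.89.

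Sensory receptor families, chosen after their values were seen, held many of the lower calls. Of 459 tested olfactory receptors, the odorant receptors of the nose, 169 were lower and 0 higher, and of 106 vomeronasal receptors 45 were lower and 0 higher (background 8.96% lower). Leaving out resistant mouse 2 gave 413 and 98 lower, and 1 olfactory receptor higher (background 25.4% lower). No resistant array other than at most that of mouse 2 had 321 of the olfactory and 82 of the vomeronasal receptors well above background, while 354 and 81 were so on all sensitive arrays. Many of these genes thus entered the test through the sensitive and vehicle arrays, which fixed their direction, so the counts describe the signal on the arrays and support nothing further. Olfr951 had levels of -7.78, -4.53, -7.29 and -7.29 in resistant bulk, against -1.45, -1.89, -1.54 and -1.56 in sensitive bulk and -1.88 to -1.60 in vehicle bulk. No resistant array had it well above background and every sensitive array did, so it was at least 10.3-fold lower in resistant bulk (limma adjusted p = 0.000248), and at least 16.1-fold lower without resistant mouse 2. Pax7, a transcription factor of muscle stem cells, was at least 7.78-fold lower (12.2-fold without resistant mouse 2). Its levels were -7.57, -5.02, -7.49 and -6.85 in resistant bulk and -2.43 to -1.60 in sensitive bulk. No resistant array had Pax7 well above background, so the sensitive and vehicle arrays fixed its direction as well. Mdh1b, a malate dehydrogenase, was measured on 3 resistant and 4 sensitive arrays and fell by 4.60 on the log2 scale (SE 0.36, adjusted p = 2.77e-05). Its levels were -4.67 to -3.00 in resistant bulk, against 0.27 to 1.18 in sensitive bulk.

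Other genes with large fitted falls were Amer3 (-5.08, or -5.90 without resistant mouse 2), Olfr441 (-4.87), Gm10389 (-4.70) and Ugt2b37 (-4.63). Gm10389 and Ugt2b37 were each well above background on 1 resistant array and Olfr441 on 2. Without resistant mouse 2 Gm10389 was at least 21.9-fold lower. Vmn2r90, Olfr661, Sp7, Crygf and Acsm3 were well above background on no resistant array, so their differences are bounds: at least 13.0-fold, 5.94-fold, 8.29-fold, 8.16-fold and 5.24-fold lower in resistant bulk. These bounds were 20.4-fold, 9.30-fold, 13.0-fold, 12.8-fold and 8.20-fold without resistant mouse 2. All of these genes entered the test through the sensitive and vehicle arrays, which fixed their direction. Sp7 is a transcription factor of bone-forming cells and Crygf a lens crystallin. Other probes of these genes were near background. That of Vmn2r90, well above it on 2 resistant and 0 sensitive arrays, differed by 1.92 in the opposite direction. Those of Acsm3 and Crygf, each well above it on 1 resistant and 1 sensitive array, differed by 0.07 and -0.20. Without resistant mouse 2 these probes differed by 0.89 (Vmn2r90), -1.69 (Acsm3) and -2.05 (Crygf). In the EC fraction of the same mice Olfr951 differed by -3.83 and Olfr441 by -4.27.

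Among the largest rises, Chga, which encodes the neuroendocrine granule protein chromogranin A, was higher in every resistant sample. Its levels were -0.47, -1.37, -1.57 and -2.44 in resistant bulk, against -4.09, -4.13, -4.98 and -5.03 in sensitive bulk and -5.20 to -2.28 in vehicle bulk. The resistant and sensitive arrays did not overlap, and the difference was 3.10 (SE 0.59, adjusted p = 0.00709). Lgals7, galectin-7 of stratified epithelium, had levels of 0.31, 0.31, 0.57 and 0.12 in resistant bulk, against -1.71, -2.56, -2.92 and -1.77 in sensitive bulk. It differed by 2.57 (SE 0.36, adjusted p = 0.00105), and every resistant array was above every sensitive and vehicle array. Krt20, an intermediate filament of intestinal epithelium, differed by 2.82 (SE 0.74, limma adjusted p = 0.0321). Its levels were -4.00 to -0.57 in resistant bulk and -6.22 to -4.83 in sensitive bulk. Only 2 sensitive arrays had Krt20 well above background, so the size of its difference is uncertain. Without resistant mouse 2 it differed by 2.16, and its call was lost on leaving out any of 5 other arrays, with adjusted p up to 0.0909.

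Gstcd rose by 2.38 (adjusted p = 0.00404), Gm14124 by 2.17 (adjusted p = 0.0018) and Ptpn4, a protein tyrosine phosphatase, by 2.03 (adjusted p = 0.00687). The other probe of Gm14124 differed by -2.16. That of Gstcd, well above background on every resistant and sensitive array, differed by 0.74. Zfp600 was at least 4.21-fold higher in resistant bulk, where all arrays had it well above background and no sensitive or vehicle array did. It thus entered the test only through the resistant arrays, which fixed its direction. The bound was 2.65-fold without resistant mouse 2, and the call was lost without sensitive mouse 5 (adjusted p = 0.0577). Zfp711, Slc27a6 (a fatty acid transporter) and Zfp971 differed by 2.33, 2.01 and 1.99 (1.83, 1.58 and 1.35 without resistant mouse 2). Each lost its call on leaving out any of 6, 4 and 6 arrays, with limma adjusted p up to 0.113, 0.0718 and 0.105. Slc27a6 was well above background on only 1 sensitive array.

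**Figure D2:**
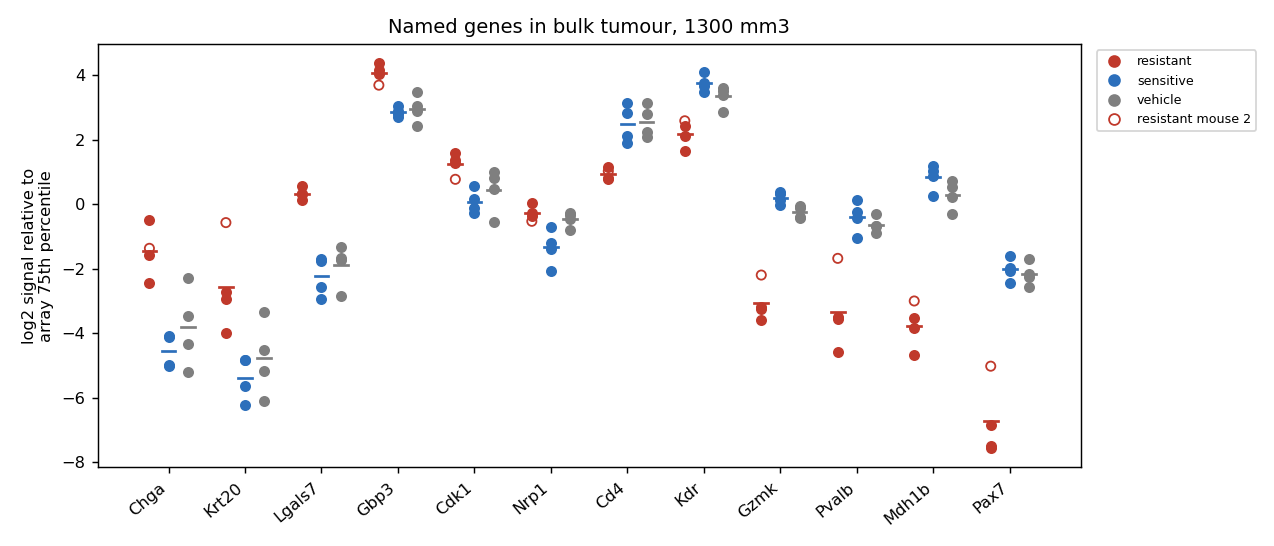
Log2 level (y axis, relative to the 75th percentile of the array) of 12 genes in each bulk sample, with resistant, sensitive and vehicle samples side by side and bars at group means; the open circle is resistant mouse 2. Lgals7 lay between 0.12 and 0.57 in resistant bulk and between -2.92 and -1.71 in sensitive bulk, and Gzmk lay below -2.1 in every resistant sample.

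The tested genes of a run of neighbours near the end of chromosome 2 moved together. The Zfp members are zinc-finger proteins, a family that binds nucleic acids through zinc-holding fingers, and Gm14403 is annotated as a long non-coding RNA. The run was chosen after its values were seen. The promoters of its tested members resemble one another. Compared position by position without gaps, 68 to 115 of 117 bases matched the Zfp967 window, so a shift by a base lowers the count. The probes may read RNA of several genes, and the values are uncertain as to which copy changed. The promoters are shown with 17 shared bases in capitals, within 250 bases before to 50 after the gene start (RefSeq, GRCm38.p6). These bases are the longest stretch common to the promoters of all 10 tested members, so that all 10 hold it was fixed by the search.
Gm14393, chr2:175067819-175067935, minus strand: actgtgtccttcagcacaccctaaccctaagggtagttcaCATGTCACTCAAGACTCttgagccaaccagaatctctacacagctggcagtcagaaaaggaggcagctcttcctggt
Zfp967, chr2:176520878-176520994, plus strand: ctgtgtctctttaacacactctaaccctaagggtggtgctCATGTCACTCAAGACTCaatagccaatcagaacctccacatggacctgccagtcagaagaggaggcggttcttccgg
Gm14305, chr2:176708187-176708303, plus strand: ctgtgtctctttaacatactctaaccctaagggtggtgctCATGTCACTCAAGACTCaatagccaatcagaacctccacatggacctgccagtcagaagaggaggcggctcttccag
Gm14403, chr2:177498080-177498196, plus strand: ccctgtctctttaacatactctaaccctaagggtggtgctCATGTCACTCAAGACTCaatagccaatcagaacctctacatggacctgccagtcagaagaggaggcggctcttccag
Gm14326, chr2:177957329-177957445, minus strand: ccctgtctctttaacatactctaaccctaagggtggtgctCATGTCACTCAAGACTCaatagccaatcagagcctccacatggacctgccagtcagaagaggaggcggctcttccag
Zfp931, chr2:178078479-178078595, minus strand: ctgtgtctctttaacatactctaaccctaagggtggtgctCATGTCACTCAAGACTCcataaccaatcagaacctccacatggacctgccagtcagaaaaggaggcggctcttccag

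On either strand, 29 of 27025 promoters, 1 per gene (0.107%), hold the 17 bases. The 10 tested members are among them by the way the stretch was found, and the other 19 all lie on chromosome 2 too. Of 70 annotated genes from Gm14393 to Zfp931, only 10 had a named probe on the array, and all 10 were tested. Of these, 8 were called higher and 0 lower. Among the other 336 tested Zfp genes 27 were higher and 17 lower. Zfp967 had levels of -0.11, 0.02, 0.00 and -0.08 in resistant bulk, against -1.76, -1.98, -2.09 and -1.65 in sensitive bulk and -1.36 to -0.38 in vehicle bulk. The difference was 1.83 (SE 0.22, adjusted p = 0.000409), and vehicle bulk lay between the groups. Gm14326 had levels of 1.49 to 1.89 in resistant bulk, against 0.27 to 0.57 in sensitive bulk, a difference of 1.21 (adjusted p = 0.00934). Gm14305 differed by 2.24 (SE 0.40, adjusted p = 0.00458), with levels of -2.62 to -0.83 in resistant bulk and -4.36 to -4.14 in sensitive bulk. Gm14403 (0.31, adjusted p = 0.404) and Zfp931 (1.16, adjusted p = 0.0609) did not pass, though their groups did not overlap either. In the EC fraction Zfp967 differed by 1.19 and Gm14305 by 1.35.

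**Figure D3:**
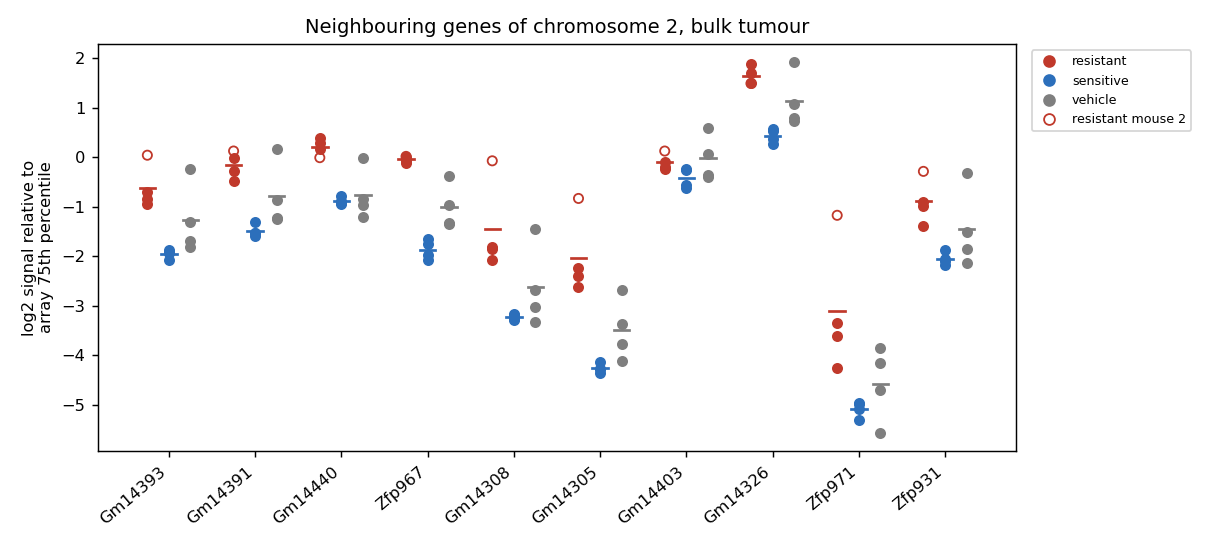
Log2 level (y axis) of the 10 tested neighbouring genes of chromosome 2 (x axis) in every bulk sample; bars are group means. Zfp967 lies between -0.11 and 0.02 in resistant bulk and between -2.09 and -1.65 in sensitive bulk, and Gm14403 shows the smallest difference, 0.31.

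Gbp2, Gbp3 and Gbp4, guanylate-binding GTPases induced by interferon-gamma that act against intracellular microbes, rose in resistant bulk. Gbp3 had levels of 4.38, 3.70, 4.17 and 4.03 in resistant bulk, against 3.04, 2.80, 2.71 and 2.89 in sensitive bulk, and the vehicle arrays spanned 2.44 to 3.47. The groups did not overlap, and Gbp3 differed by 1.21 (SE 0.23, adjusted p = 0.00604). Gbp2 differed by 0.94 (adjusted p = 0.03), a call lost on leaving out any of 5 arrays (adjusted p up to 0.09). Both belong to the antigen presentation list, where these 2 of 19 genes were higher and 0 lower, with a median difference of 0.35 (background 3.32% higher). Without resistant mouse 2, 7 were higher and 1 lower (background 12.3% higher and 25.4% lower). Gbp4 (1.47) and Irgm2 (1.37), of the same interferon-inducible families, also rose and were named after their values were seen. Gbp4 lost its call on leaving out any of 3 arrays (adjusted p up to 0.0614) and Irgm2 on any of 4 (up to 0.0751). The promoters of Gbp2 and Gbp3 are shown for GAAA followed after any 2 bases by GAAA, or TTTC in the same way on the other strand, in capitals, a form of the element that interferon regulatory factors bind.
Gbp2, chr3:142620413-142620712, plus strand: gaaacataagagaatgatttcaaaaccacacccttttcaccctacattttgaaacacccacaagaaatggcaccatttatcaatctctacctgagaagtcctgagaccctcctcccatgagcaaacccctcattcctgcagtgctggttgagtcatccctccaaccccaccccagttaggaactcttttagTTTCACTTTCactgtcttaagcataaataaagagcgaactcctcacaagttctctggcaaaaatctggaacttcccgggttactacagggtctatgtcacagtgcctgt
Gbp3, chr3:142559794-142560093, plus strand: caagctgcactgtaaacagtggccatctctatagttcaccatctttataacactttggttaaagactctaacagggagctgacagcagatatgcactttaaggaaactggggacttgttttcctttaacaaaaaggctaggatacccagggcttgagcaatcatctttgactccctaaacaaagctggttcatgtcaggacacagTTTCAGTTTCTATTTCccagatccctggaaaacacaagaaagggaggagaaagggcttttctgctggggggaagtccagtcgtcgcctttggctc

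That motif, read on both strands, is in 943 of 27025 promoters (3.49%) and in 3 of the 14 antigen presentation genes with a promoter in the table. Of the type I interferon list, 0 of 19 genes passed in either direction (background 12.3%), and the median difference was 0.36.

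Gzmk and Cd4, both genes of T cells, fell. Gzmk, granzyme K of cytotoxic T cells, had levels of -3.24, -2.20, -3.58 and -3.20 in resistant bulk, against 0.14, -0.02, 0.32 and 0.38 in sensitive bulk and -0.42 to -0.06 in vehicle bulk. It fell by 3.26 on the log2 scale (SE 0.26, adjusted p = 3.56e-05), and the groups lay far apart. Cd4, the helper T cell co-receptor, had levels of 1.16, 1.03, 0.78 and 0.81 in resistant bulk, against 1.89, 2.11, 2.82 and 3.13 in sensitive bulk. It fell by 1.54 (SE 0.31, adjusted p = 0.00874), and its other probe by 1.52. Gzmk and Cd4 were the only called members of the T and NK list of 19 genes. That share was near the one over all genes (background 8.96% lower), and the median of the list was -0.37. In the EC fraction Gzmk differed by -3.18 and Cd4 by -1.93. Of the other immune lists, the dendritic cell list held 2 calls among 11 genes tested. The mast cell list held 1 among 9 and the B and plasma cell list 1 among 10 (background 12.3% called). The macrophage, neutrophil, eosinophil and regulatory T cell lists held 0. Clec9a, of cross-presenting dendritic cells, differed by 1.15 and Siglech, of plasmacytoid dendritic cells, by -0.70, and the mast cell tryptase Tpsb2 differed by -1.10, with -0.15 at its other probe. Another Siglech probe differed by 0.67 in the opposite direction, and by -0.08 without resistant mouse 2. The call of Siglech was lost on leaving out any of 7 arrays (limma adjusted p up to 0.0924), that of Clec9a only without resistant mouse 3 (0.0558).

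Endothelial markers were higher by mean in resistant bulk, but few passed. Of 27 tested, 1 was called higher (Sox17) and 2 lower (Clec14a, Kdr), shares near those over all genes (background 3.32% higher, 8.96% lower). The mean was higher in resistant bulk for 23, with a median difference of 1.37, and 12 did not overlap in the higher direction (background 7.08%). With resistant mouse 2 left out, 2 were higher and 2 lower (background 12.3% higher, 25.4% lower). The higher calls depended on the setting: 9 with the 8 resistant and sensitive arrays only and 12 without vehicle mouse 3. There were 13 with array weights and 0 with normexp background correction, and 2 lower in each setting. Over all 16969 genes, 303, 625, 2926 and 423 were higher under these settings, in that order. The mean level of the list was -1.12 to -0.58 on resistant arrays, against -2.66 to -1.25 on sensitive arrays and -2.50 to 1.17 on vehicle arrays, so resistant and sensitive arrays did not overlap; the part of how much endothelium the selection left behind was not tested. Sox17, an endothelial transcription factor, had levels of -2.82, -3.46, -2.63 and -3.64 in resistant bulk, against -8.40, -7.36, -5.43 and -7.70 in sensitive bulk. It was well above background on 3 resistant arrays, 0 sensitive arrays and 1 vehicle array. Sox17 thus entered the test mainly through the resistant arrays, which largely fixed its direction. It was at least 6.32-fold higher (adjusted p = 0.037), though its other probe differed by -0.07 and its call was lost on leaving out any of 6 arrays (adjusted p up to 0.0969). Cdh5, the adhesion protein VE-cadherin, had levels of -1.22 to -0.47 in resistant bulk and -4.93 to -2.35 in sensitive bulk. It differed by 3.30 and passed only without resistant mouse 2 (adjusted p = 0.0298, against 0.0568 with it). Clec14a, an endothelial surface lectin, differed by -1.89, with 0.61 at its other probe (0.14 without resistant mouse 2). That probe was well above background on 0 resistant arrays and 1 sensitive array. Ldb2, Dmd and Tpst1 were among the largest rises without resistant mouse 2. With that mouse left out, Ldb2 was at least 4.25-fold higher, as no sensitive array had it well above background. Ldb2 entered the test through 3 resistant arrays and 1 vehicle array, which largely fixed its direction. Without resistant mouse 2 Dmd differed by 2.44 and Tpst1 by 2.27, and another Dmd probe by -3.31.

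The targets of the drug differed in few cases. Kdr, the main VEGF receptor, had levels of 2.12, 2.59, 2.42 and 1.64 in resistant bulk, against 3.66, 3.49, 3.76 and 4.10 in sensitive bulk and 2.88 to 3.62 in vehicle bulk. It fell by 1.56 (SE 0.24, adjusted p = 0.00216). The dimmer Kdr probe differed by 0.76 in the other direction, so the gene's direction depends on the probe. Flt1 (-0.55), Pdgfra (0.46), Pdgfrb (0.37), Kit (0.02) and Csf1r (-0.17) did not pass, at adjusted p of 0.418 to 0.982. Vegfa, the principal ligand, differed by -0.62 (SE 0.53, adjusted p = 0.491), and by -0.24 without resistant mouse 2, and its levels overlapped, at 1.96 to 3.74 in resistant bulk and 3.19 to 4.34 in sensitive bulk. Pecam1 differed by -0.04.

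**Figure D4:**
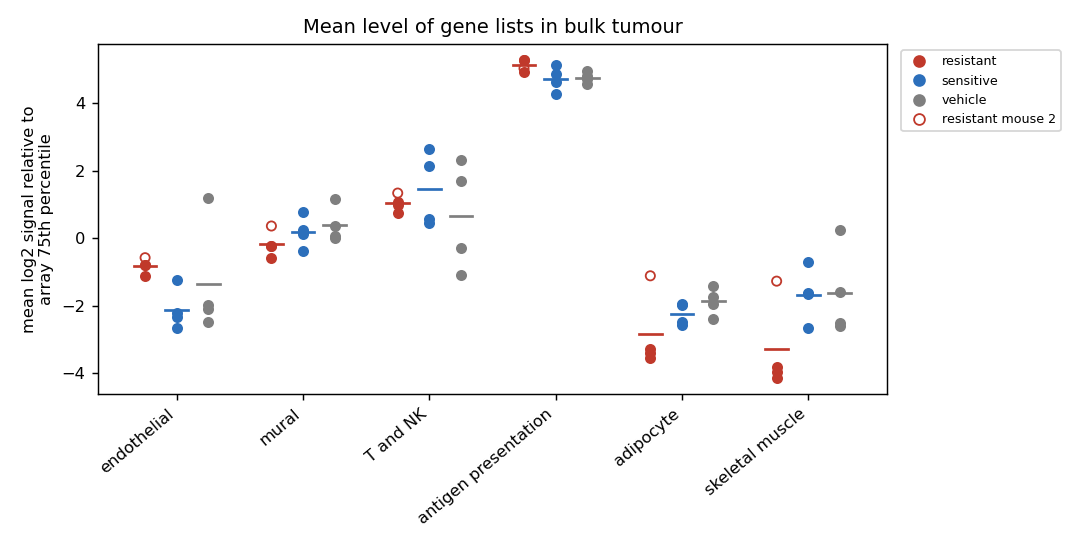
Mean log2 level (y axis, relative to the 75th percentile of the array) of 6 gene lists in each bulk sample, with bars at group means. Endothelial list levels of resistant samples are between -1.12 and -0.58 and those of sensitive samples between -2.66 and -1.25; in the skeletal muscle list resistant mouse 2 is at -1.27.

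Angiogenic, metabolic and growth genes changed singly. Nrp1, a co-receptor for VEGF, had levels of -0.53 to 0.04 in resistant bulk, against -2.07 to -0.69 in sensitive bulk, and rose by 1.06 (SE 0.27, adjusted p = 0.0275). Edn1, endothelin, rose by 1.47, Mcam by 1.33, and Lfng, a Notch-modifying enzyme, by 0.83. The other Mcam probe differed by 0.46, or 0.11 without resistant mouse 2. Kdm3a, a histone demethylase induced by hypoxia, had levels of 2.33 to 2.93 in resistant bulk, against 1.88 to 2.21 in sensitive bulk, and rose by 0.67 (adjusted p = 0.0234). It was 1 of 23 hypoxia genes called, and Pdk1, a kinase that inhibits pyruvate dehydrogenase, rose by 0.54 as 1 of 21 glycolysis genes. Both shares were near that over all genes (background 3.32% higher).
Among 33 cell cycle genes, Cdk1 differed by 1.17 (SE 0.33), with levels of 0.78 to 1.60 in resistant bulk and -0.28 to 0.56 in sensitive bulk. Its other probes differed by -1.15 and -0.13, the latter well above background on 0 resistant arrays. Tyms (-0.78) and E2f1 (-0.66), of nucleotide synthesis and S-phase entry, fell. Of the 33 genes, 1 was thus called higher and 2 lower (background 3.32% higher, 8.96% lower). The calls of Nrp1, Edn1, Mcam, Lfng, Kdm3a, Pdk1, Cdk1, Tyms and E2f1 were each lost on leaving out some arrays, Lfng on 3 and Nrp1, Pdk1 and Cdk1 on 6, at adjusted p of up to 0.127.

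Mmp13, a collagenase, rose by 1.06, Id1, a target of bone morphogenetic proteins, by 1.15, and Dnajb9, an endoplasmic reticulum chaperone, by 1.02. The other Dnajb9 probe differed by 0.49, or 0.35 without resistant mouse 2. Dhcr7 and Srebf1, of sterol synthesis, rose by 0.75 and 0.71, and Sesn2, a stress-induced sestrin, fell by 0.94. Serpinb8 rose by 0.98, and Serpinb11 was at least 6.39-fold lower, or 10.2-fold without resistant mouse 2. No resistant array had Serpinb11 well above background, so it entered the test through the sensitive and vehicle arrays, which fixed its direction. Genes usual as references moved as well: Tbp differed by 0.95 and Sdha by 0.71. The other Tbp probe differed by 0.62, or 0.29 without resistant mouse 2. Rplp0, at 8.23 to 8.66 in resistant bulk and 9.03 to 9.60 in sensitive bulk, fell by 0.86 (limma adjusted p = 0.015). Krt18, a keratin of simple epithelium, fell by 0.55 and was the only called member of the tumour epithelial list of 18 genes (background 8.96% lower). In this paragraph only Sesn2 and Sdha kept their calls on leaving out each of the 8 arrays in turn; the calls of Rplp0 and Dhcr7 were lost on 2, those of Id1, Srebf1, Serpinb8 and Tbp on 4, Serpinb11 on 5, Mmp13 and Krt18 on 6 and Dnajb9 on 7, at adjusted p of up to 0.126.

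Of 15 skeletal muscle genes 2 were lower (Tnnc2, Pvalb), and of 10 adipocyte genes 1 (Lep), with 0 higher in either (background 8.96% lower). The counts were 8 and 5 lower without resistant mouse 2 (background 25.4%). Both lists are dim, with a median level of -1.56 and -1.88 in sensitive bulk. Over all genes without resistant mouse 2, 62.3% of the lowest and 26.4% of the second level group were lower. Whether the lists differ from genes of like level was not tested. The mean of 15 skeletal muscle genes was -3.96, -1.27, -4.13 and -3.81 on the resistant arrays, against -2.67 to -0.72 on sensitive and -2.61 to 0.25 on vehicle arrays, and its median difference was -2.05. Pvalb, parvalbumin of fast fibres, fell by 2.93 (SE 0.50, adjusted p = 0.00393), with levels of -4.58 to -1.68 in resistant bulk and -1.05 to 0.14 in sensitive bulk. Tnnc2, a fast troponin, differed by -3.08 (-3.67 without resistant mouse 2), a call lost on leaving out any of 6 arrays. Lep, the fat hormone leptin, had levels of -7.09, -3.24, -6.65 and -7.30 in resistant bulk, against -2.15, -2.66, -2.31 and -1.24 in sensitive bulk. It was at least 7.38-fold lower (limma adjusted p = 0.00704), and 11.6-fold without resistant mouse 2. No resistant array had Lep well above background, so it entered the test through the sensitive and vehicle arrays, which fixed its direction.

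The resistance difference in bulk was set against that in the EC fraction of the same mice, paired by the mouse numbers in the sample titles. The resistant arrays of both fractions share a slide, whereas the sensitive arrays of the fractions lie on different slides. A part of the slides in this comparison was not tested. With the mouse as a random block, the resistant minus sensitive difference was unlike between the fractions for 1556 genes (9.17%) at a limma adjusted p of 0.05. This count was not repeated without resistant mouse 2. Sox17 differed by a fitted 4.09 in bulk, where its sensitive arrays were below background, and by -1.01 in the EC fraction. Chga differed by 3.10 in bulk and -0.23 in the EC fraction. Krt20 differed by 2.82 in bulk, where only 2 sensitive arrays had it well above background, and by -0.07 in the EC fraction. Each of these differences between fractions passed (limma adjusted p of 0.00693, 0.00789 and 0.0249). Kdr differed by -1.56 in bulk and -0.84 in the EC fraction (adjusted p = 0.133 for the difference), and Pecam1 by -0.04 and -1.22 (adjusted p = 0.124).

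**Figure D5:**
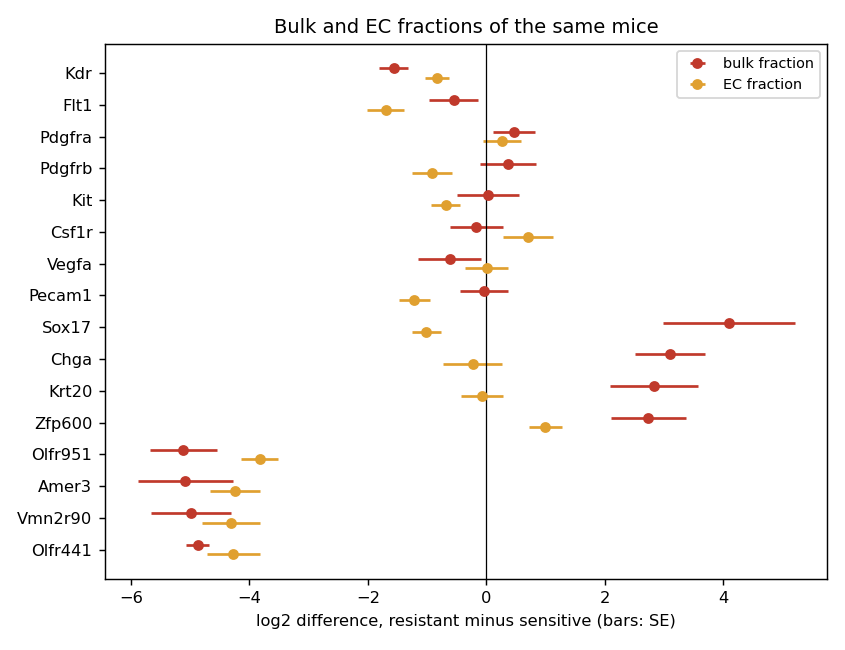
Log2 difference, resistant minus sensitive (x axis, bars are SE), in the bulk and EC fractions for 16 genes. Sox17, Chga and Krt20 are at 4.09, 3.10 and 2.82 in bulk and between -1.01 and -0.07 in the EC fraction, while the fitted values of Olfr951, Amer3, Vmn2r90 and Olfr441 are below -3.8 in both; sensitive bulk had no Sox17 or Zfp600, and resistant bulk no Olfr951 or Vmn2r90, well above background.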

How the data were processed

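RNA of 32 samples was measured on 1-colour Agilent arrays, and the 12 bulk arrays at 1300 mm3 enter the main fit (4 resistant, 4 sensitive, 4 vehicle). Agilent Feature Extraction 10.7.3.1 wrote the intensity values of each scanner file, with background subtracted within the array, per the file headers; version 9.1 stands in the submitters' processing notes. A deposited table covers every sample with intensity values on a linear scale, normalized by the authors in a way not given in the sources used here; its column medians lie close together and its centring is unknown. Each of its columns matched its own array best. No sample's file holds counts, so the number of arrays limits the precision.

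Control and outlier spots were dropped and spots of a probe averaged. Of 55681 probes, 26582 were named by RefSeq accession (GRCm38.p6), for 20145 genes, and 29099 were not used. The brightest probe stood for a gene. Levels are the log2 processed signal less the array's 75th percentile, and 16969 genes well above background on at least 4 bulk arrays were tested. limma 3.58.1 in R 4.3.3 (lmFit, contrasts, eBayes) with Benjamini-Hochberg adjustment over all genes gave every adjusted p. SE are limma's. "At least" folds use, for a group under background, the dimmest signal that each array called above it. The fit was also run on simulated arrays with independent noise, whose spread was taken without resistant mouse 2. That run therefore says nothing about an array that stands apart or about the slides.

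The rule for named genes took 12 rises and 12 falls, the largest among called genes with no overlap between the groups' arrays, 8 of each without resistant mouse 2, up to 3 called members of each of 39 lists, and always Kdr with Flt1, the PDGF receptors, Kit, Csf1r, Vegfa and Pecam1. Only some of these are named here. The members and lists were chosen with earlier results of these data known. Mice are separate animals, and their numbers were tested as pairs.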

Additional observations from a re-analysis of the deposited data

Results flagged for a closer look

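In groups of 4, 1 value in about 20 groups stands apart by chance by the gap test used (Dixon), and 5 values did: all of them are resistant mouse 2. Its Olfr951 level was -4.53, its Lep level -3.24, its skeletal muscle list mean -1.27, its adipocyte list mean -1.12 and its share of probes well above background 83.5%, each far above the other resistant arrays.

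The resistant minus sensitive difference was larger in bulk than in the EC fraction by 3.33 for Chga and by 2.90 for Krt20 on the log2 scale. Krt20 was well above background on only 2 sensitive bulk arrays, so its size is uncertain. For Sox17 the fitted difference between fractions was 5.10, but no sensitive bulk array had it well above background, so its size is not measured, and its other probe differed by -0.07 in bulk. With the difference taken per mouse, the adjusted p was 0.0279 for Chga, 0.0623 for Krt20 and 0.0323 for Sox17.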

How the results depend on the processing

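Against 2084 genes, the count was 1272 with the 8 resistant and sensitive arrays only, 873 scaled to the array median, 7680 with array weights, and 1172 to 6395 on leaving out 1 array (6395 without resistant mouse 2). Higher calls made up 27.1% of the calls, 10.4% scaled to the array median (where the median of all genes was 0.45), 37.4% with the deposited values, 40.0% with genes well above background on all 12 arrays and 38.1% with array weights. Without resistant mouse 2, against 6395 genes (32.7% higher), the count was 13923 (82.6% higher) scaled to the array median and 3592 (53.3% higher) with genes above background on all 12 arrays; quantile normalization gave 50.0% and the deposited values 54.1% higher, and the count was 4829 to 6221 on leaving out 1 further array. The genes whose resistant minus sensitive difference was unlike between bulk and EC numbered 590 with a difference per mouse, against 1556. The causes were not tested. The mouse numbers do not pair the samples (correlations of deviations 0.06, 0.20 and -0.01 for mice 2, 3 and 4); a replicate block on them left 2 residual degrees of freedom and called 0 genes with limma, with 1885 at an unadjusted p under 0.05. A slide block was not run, since slide and resistance coincide.

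Of 66 named called genes, 28 kept their call on leaving out each of the 8 arrays in turn, and 32 kept it scaled to the array median. Signs turned for Cdk1 with the mean of its probes (-0.037), for Kit with quantile normalization (-0.045) and without resistant mouse 1 or sensitive mouse 3 (-0.41 to 0.23 on leaving out 1 array), for Csf1r scaled to the array median (0.33) and without resistant mouse 4 or sensitive mouse 2 (-0.53 to 0.24), and for Pecam1 with quantile normalization (0.20), the deposited values (0.37), median scaling (0.46), the block (0.033) and without resistant mouse 3, resistant mouse 4 or sensitive mouse 4 (-0.35 to 0.13). Leaving out vehicle mouse 3, an alternative chosen after seeing the data, gave 2107 genes. Low signal limits the lowest level group of genes most.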

Other observations

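Ribosomal protein genes, which build the translating ribosome, were lower for 16 and higher for 1 of 80 tested in resistant bulk, with a median difference of -0.39 (background 8.96% lower, 3.32% higher). Cytochrome P450 genes were lower for 16 and higher for 0 of 75, and keratins lower for 7 and higher for 1 of 43. No resistant array other than at most that of mouse 2 had 31 of the cytochrome P450 genes and 17 of the keratins well above background, while 65 and 35 were so on all sensitive arrays, so many entered the test through the group where they are high and the direction of the counts was largely fixed by that. Leaving out resistant mouse 2, 31 ribosomal protein genes, 46 cytochrome P450 genes and 27 keratins were lower (background 25.4%). These families were chosen after the data were seen.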
